A study of Mus musculus with 18 samples.

Results

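Neurexins, neuroligins and the scaffolds beneath the postsynaptic membrane were followed in the brains of mouse pups given lead acetate or saline. The 9 genes were the neurexins Nrxn2 and Nrxn3, the neuroligins Nlgn1, Nlgn2 and Nlgn3, and the scaffold genes Dlg4, Shank1, Shank3 and Homer1. They were chosen by symbol, and a probe set (a group of short array probes read as 1 value) was counted for a gene only where the annotation gave it that symbol and no other. This gave 25 probe sets of 34958 with exactly 1 symbol, and 9 genes of 18194. The brightest probe set of a gene was its main one, and the others served as a check.

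Neurexins are presynaptic receptors that reach across the synaptic cleft and bind neuroligins on the postsynaptic side. Neuroligins in turn bind scaffold proteins, which hold glutamate or GABA receptors and signalling enzymes opposite the site of release. In the rodent brain this machinery is assembled during the first weeks after birth, when synapses form in large numbers.

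The pups were Mt-KO (-/-), heterozygous (+/-) or wild-type (+/+) for a metallothionein knockout on the C57BL/6J background, made by at least 7 generations of backcrossing. Metallothioneins are small cysteine-rich proteins that bind metals, and which of their genes carry the lesion is not given in the sources used here. Each pup received lead acetate at 50 mg/kg or, in weight-matched controls, saline, 2 times a day and 4 h apart on postnatal days 7 and 8, and the whole brain was collected 6 h after the final dose. Each of the 6 pools held RNA of 5 pups, male and female per the labels, and was read on 1 array, so each combination of genotype and treatment had a single measurement. The question the design puts is how lead given while synapses form alters brain transcripts, and whether metallothionein gene dosage alters that response.

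Values are RMA values on the log2 scale, where 1 unit is a doubling of signal. A level of 1 probe set cannot be set against that of another, so only differences between pools are compared. In a pooled whole brain, fewer cells of a type and less RNA per cell cannot be told apart. All 10 pan-neuronal markers were above the brightness limit, and Stmn2, a neuronal tubulin-binding protein, averaged 14.86, which fits the labelled tissue. The mean of those markers relative to the array median was 2.65 in Mt-KO lead, 2.53 in Mt-KO saline, 2.87 in heterozygous lead, 2.71 in heterozygous saline, 2.86 in wild-type lead and 2.99 in wild-type saline. Mt1 was 11.71 and 11.68 in the Mt-KO pools, against 12.87 and 12.45 in the heterozygous and 13.30 and 13.17 in the wild-type pools (lead and saline in each case). The deposited values were not scaled further. The array medians over the 10916 genes tested lay between 10.87 in wild-type lead and 11.05 in wild-type saline. Over all probe sets they lay between 9.10 in heterozygous saline and 9.15 in heterozygous lead. The difference between the 3′ and 5′ Gapdh control probe sets, a sign of RNA integrity, ran from 0.54 in Mt-KO saline to 0.82 in heterozygous lead, and was 1.19 in wild-type saline, the array that stood apart. The part of RNA integrity in the results that rest on that array was not tested.

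The promoters of 6 of the 9 genes were in the RefSeq table (GRCm38.p6), as 12 windows that run from 250 bases before to 50 bases after a transcript start. They were searched on both strands for TGACG, the core of the cyclic AMP response element, through which neuronal activity is known to induce genes. The first Homer1 window, chr13:93303507-93303806 on the plus strand, held 3 matches, and 1.03% of the 32851 promoters in the table held as many or more. It is shown because 1 Homer1 probe set was higher in every lead pool. That probe set was under the brightness limit, and its lead difference did not pass the test. An Nlgn1 window, chr3:26331860-26332159 on the minus strand, is shown because Nlgn1 was the gene that passed a test. A link between the matches and lead was not tested. Capitals mark TGACG, as read 5′ to 3′.

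Homer1: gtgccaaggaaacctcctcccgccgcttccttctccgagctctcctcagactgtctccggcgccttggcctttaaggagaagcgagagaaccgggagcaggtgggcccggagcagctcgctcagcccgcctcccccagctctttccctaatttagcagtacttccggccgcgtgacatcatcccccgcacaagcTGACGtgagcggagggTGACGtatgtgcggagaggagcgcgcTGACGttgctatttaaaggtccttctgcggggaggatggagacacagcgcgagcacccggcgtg

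Nlgn1: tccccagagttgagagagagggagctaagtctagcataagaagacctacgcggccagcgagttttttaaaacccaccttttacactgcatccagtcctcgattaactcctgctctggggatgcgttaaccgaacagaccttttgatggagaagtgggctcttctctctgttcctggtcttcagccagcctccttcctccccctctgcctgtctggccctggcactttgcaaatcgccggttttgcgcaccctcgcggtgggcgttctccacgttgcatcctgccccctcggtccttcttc

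The Nlgn1 window held no match. At least 1 match was found in 20.8% of all promoters. The Nlgn2 window and 1 of the 3 Dlg4 windows held 1 match each, while the other Nlgn1 window, the second Homer1 window, the Shank3 window and the 3 Nrxn3 windows held none. A match is a run of letters and does not show that a factor binds there.

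Nrxn2 and Nrxn3, the presynaptic partners, lie on chromosome 19 (6418756 to 6533217) and chromosome 12 (88722701 to 90334935) of GRCm38.p6. The main Nrxn2 probe set, 1435907_at, read 13.39 with lead and 13.13 with saline in Mt-KO, 13.50 with lead and 13.25 with saline in heterozygous, and 13.38 with lead and 13.70 with saline in wild-type pools. Lead was thus higher in 2 genotypes and lower in wild-type. The main Nrxn3 probe set, 1433788_at, followed the same order of pairs, at 12.53 with lead and 12.34 with saline in Mt-KO, 12.79 and 12.49 in heterozygous, and 12.54 and 12.82 in wild-type pools. In the additive fit the lead coefficient was 0.06 ± 0.23 for Nrxn2 and 0.07 ± 0.18 for Nrxn3 (log2, SE, 3 lead against 3 saline arrays, limma adjusted p = 1 for both). The Mt-KO minus wild-type differences were -0.28 ± 0.29 and -0.25 ± 0.23 (2 arrays against 2), again with adjusted p = 1.

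The neuroligins bind neurexins from the postsynaptic side. Nlgn1, found mainly at excitatory synapses, lies on chromosome 3 (25421808 to 26332866). Its main probe set, 1437160_at, read 9.78 with lead and 9.41 with saline in Mt-KO, 9.71 with lead and 9.57 with saline in heterozygous, and 9.39 with lead and 9.94 with saline in wild-type pools. The wild-type saline pool was the highest and the wild-type lead pool the lowest of the 6. Nlgn2, the neuroligin of inhibitory synapses, lies on chromosome 11 (69823123 to 69837784), and 1455143_at read 13.03 with lead and 13.03 with saline in Mt-KO, 13.38 and 13.12 in heterozygous, and 13.12 and 13.57 in wild-type pools. Both Mt-KO pools lay below both wild-type pools, by 0.32 ± 0.27 in the fit (adjusted p = 1). The other Nlgn2 probe set, 1460013_at, stayed between 9.84 and 10.02.

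Nlgn3, found at both kinds of synapse, is X-linked (101299179 to 101321350). Its main probe set, 1436135_at, read 10.91 with lead and 10.79 with saline in Mt-KO, 11.08 with lead and 10.88 with saline in heterozygous, and 10.87 with lead and 10.45 with saline in wild-type pools. Lead was higher in all 3 genotypes, by 0.24 ± 0.13 (limma, unadjusted p = 0.0645, adjusted p = 1), and both heterozygous pools lay above both wild-type pools, by 0.31 ± 0.16 (adjusted p = 1). Relative to the median gene, lead minus saline was 0.03 in Mt-KO, 0.05 in heterozygous and 0.60 in wild-type pools. On that scale heterozygous minus wild-type was 0.04 with lead and 0.59 with saline. The larger value in each case involves the wild-type saline array, which had the lowest level. The pools differed in sex-linked transcripts: Xist, expressed from the inactive X chromosome of females, was 10.23 in Mt-KO lead and 12.75 in Mt-KO saline, and the Y-linked Eif2s3y was 11.16 and 6.50 in the same pools. In the other 4 pools Xist lay between 11.91 and 12.20 and Eif2s3y between 9.45 and 10.45. The Mt-KO saline pool thus had little Y-linked signal, although the labels give male and female pups. Within the Mt-KO pair, a difference by lead and one by sex cannot be told apart, for Nlgn3 or any other gene. The part of sex in the values of Nlgn3 and the other genes was not tested. A dim Nlgn3 probe set, 1453756_at, read 9.45 with lead and 9.57 with saline in Mt-KO, 9.17 and 9.09 in heterozygous, and 9.12 and 8.51 in wild-type pools. Both Mt-KO pools lay above the other 4, and in a fit with no brightness limit Mt-KO minus wild-type was 0.69 ± 0.17 (limma, unadjusted p = 0.00295, adjusted p = 0.333). The third, 1456384_at, ranged from 8.54 to 8.95.

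Dlg4 encodes PSD-95, which binds neuroligins and NMDA receptors, and lies on chromosome 11 (70017203 to 70045535). Its main probe set, 1419580_at, read 12.41 with lead and 12.53 with saline in Mt-KO, 12.23 with lead and 12.42 with saline in heterozygous, and 12.51 with lead and 12.62 with saline in wild-type pools. Lead was lower in all 3 genotypes, by 0.14 ± 0.18 (log2, SE, adjusted p = 1), a difference smaller than its error. Relative to the median gene it was -0.22 in Mt-KO, -0.33 in heterozygous and 0.07 in wild-type pools. In the same order it was 0.01, 0.07 and -0.27 with PLIER, and -0.30, -0.22 and -0.15 with GC-RMA. The shared direction was thus not kept on every scale. Shank3, a master scaffold of the postsynaptic density, lies on chromosome 15 (89493013 to 89560261) and stayed within 0.23 units: 1419137_at read 11.94 with lead and 11.88 with saline in Mt-KO, 12.11 and 11.997 in heterozygous, and 11.96 and 12.03 in wild-type pools. Its lead coefficient was 0.04, with a 95% interval of -0.28 to 0.35, which holds differences of either sign.

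Homer1, which links Shank proteins to metabotropic glutamate receptors, lies on chromosome 13 (93303757 to 93405129). Its main probe set, 1437363_at, read 12.10 with lead and 11.91 with saline in Mt-KO, 12.12 with lead and 11.91 with saline in heterozygous, and 11.94 with lead and 12.31 with saline in wild-type pools. The wild-type pair ran opposite to the other pairs, and the fitted lead coefficient was 0.02 ± 0.16 (adjusted p = 1). Probe sets 1439662_at (10.99 to 11.28) and 1436387_at (9.12 to 9.78) also had lead above saline in Mt-KO and heterozygous and below it in wild-type pools. The median gene had these signs too. Relative to it, lead minus saline of 1437363_at was 0.10 in Mt-KO, 0.065 in heterozygous and -0.18 in wild-type pools. In the same order, 1439662_at was at -0.01, 0.05 and -0.11, and 1436387_at at 0.08, 0.29 and -0.47. Shank1 (chromosome 7, 44308916 to 44360094) had a single probe set, 1444240_at, at 8.49 to 8.75, under the brightness limit of 9.42, so it was not in the main test. In a fit without the limit its lead coefficient was -0.05 (adjusted p = 1).

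**Figure D1:**
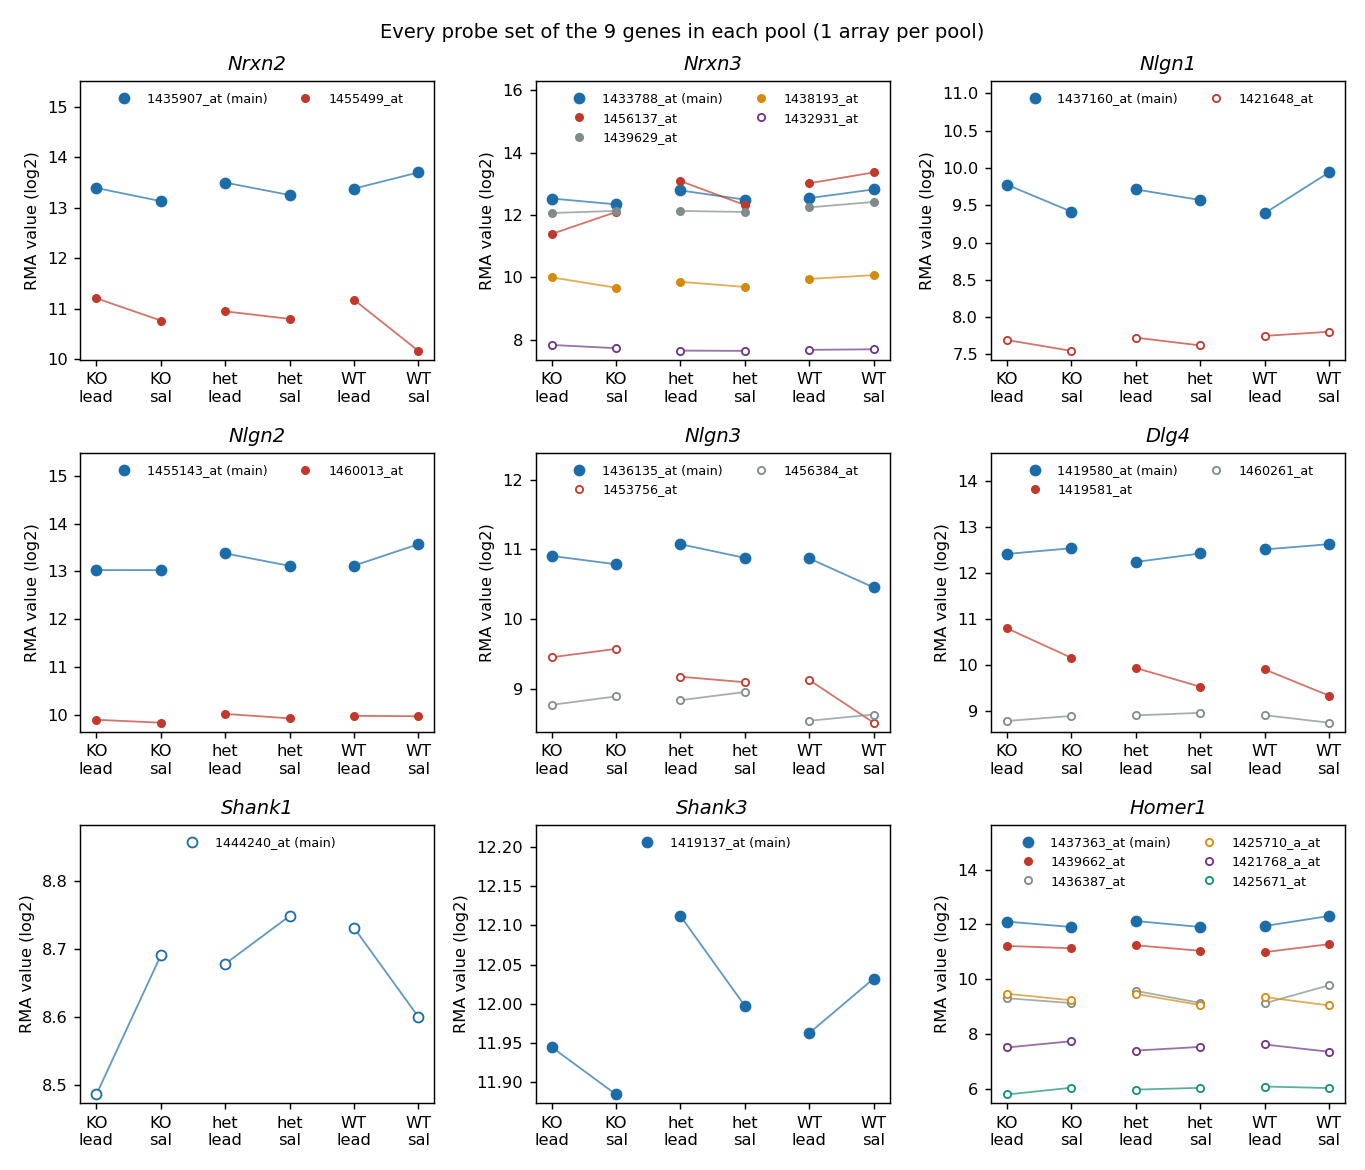
RMA value (log2, vertical axis) of every probe set of the 9 genes in each pool, with lead left of saline in each genotype (KO, Mt-KO; het, heterozygous; WT, wild-type; sal, saline). Each point is 1 array, lines join the pools of 1 genotype, large points are the main probe sets and open points lie below the brightness limit; Nrxn3 1456137_at and Dlg4 1419581_at spread more widely than the main probe sets of the same genes.

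Across the 8 genes above the limit, none passed the limma test at an adjusted p of 0.05 for lead, Mt-KO minus wild-type, heterozygous minus wild-type or Mt-KO minus heterozygous, and none had an unadjusted p under 0.05. Among all genes the shares that passed were 0.119%, 0.431%, 0.119% and 0.156% in that order, and 1.53%, 3.5%, 1.2% and 1.32% at an unadjusted p under 0.05. The members' median was 0.03 for lead, against 0.02 over all genes tested. For Mt-KO minus wild-type it was -0.11, against -0.03 over all genes. Of the 8 genes 7 were lower, with Nlgn3 the exception at 0.18 ± 0.16, while 41.3% of all genes were higher. The pan-neuronal markers were also lower relative to the array median, at 2.65 and 2.53 in Mt-KO against 2.86 and 2.99 in wild-type (lead and saline). Their part in the members' values was not tested. The 2 comparisons with wild-type share the wild-type arrays. For heterozygous minus wild-type the median was -0.07 against 0.00, and for Mt-KO minus heterozygous it was -0.12 against -0.03.

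Leaving out wild-type arrays moved many of these values. The wild-type saline array was the highest of the 6 pools for 6 of the 8 genes, as it was for 41.6% of all genes tested; relative to the array median this was 5 of 8 and 27.5%. Mt-KO saline was the lowest for 5 of the 8, against 27.7% of all genes. With both wild-type arrays left out, the lead coefficient was 0.24 for Nrxn3 (adjusted p = 0.0329), 0.21 for Homer1 (0.0341) and 0.25 for Nlgn1 (0.0347, against -0.02 with all pools), in a limma fit where 2632 of 10916 genes passed. Leaving out only the wild-type lead or only the wild-type saline array must give the same 3 values. A genotype with a lone array adds nothing to the lead coefficient, so these are not further checks. Without the wild-type lead array, wild-type is the saline array alone, the one with the Gapdh difference of 1.19. The largest Mt-KO minus wild-type values were then -0.57 for Nrxn2, -0.51 for Nrxn3, -0.47 for Nlgn1, -0.61 for Nlgn2, -0.41 for Homer1 and 0.31 for Nlgn3. Heterozygous minus wild-type in that fit rests on the same lone wild-type array. Without the wild-type saline array, which left a lone wild-type array, Nlgn1 was at 0.33 for Mt-KO and 0.37 for heterozygous minus wild-type, both of the opposite sign.

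Nlgn1 was the only one of the 8 whose lead difference passed a test of change with the number of intact metallothionein alleles. Lead minus saline was 0.36 in Mt-KO, 0.14 in heterozygous and -0.55 in wild-type pools as deposited. Relative to the median gene of each pair it was 0.27, -0.01 and -0.36. The fitted change was -0.45 ± 0.11 per intact allele (SE, 95% interval -0.66 to -0.25, limma adjusted p = 0.00262). This is a lower value than the all-gene median of -0.15, and -0.31 relative to it. Of all genes 3.77% passed this test and 20.1% had an unadjusted p under 0.05, and 365 of the 412 that passed were negative. Homer1, at -0.28 ± 0.14, had an unadjusted p of 0.0426 and an adjusted p of 0.231. The other 6 genes ranged from -0.29 for Nrxn2 to 0.15 for Nlgn3. The Mt-KO pair, whose pools differed in Xist and Eif2s3y, enters each of these values, and the part of sex was not tested.

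Leaving out either wild-type array brought the Nlgn1 value nearer to 0. In the limma fit it was -0.33 without the wild-type lead array and -0.35 without the wild-type saline array (adjusted p = 1 for both), and -0.56 without the Mt-KO saline array (adjusted p = 0.0543). With arrays centred on their medians it was -0.32 (adjusted p = 0.101). The order Mt-KO, heterozygous, wild-type held in the other summaries: lead minus saline was 0.78, 0.23 and -0.32 with GC-RMA (adjusted p = 0.393 for the change), and 0.37, 0.17 and -0.67 with PLIER (adjusted p = 0.0363). The dimmer Nlgn1 probe set, 1421648_at, read 7.69 with lead and 7.55 with saline in Mt-KO, 7.73 and 7.62 in heterozygous, and 7.75 and 7.80 in wild-type pools, so its differences as deposited were smaller. That order of its differences was not kept with GC-RMA, where they were 0.04 in Mt-KO, 0.04 in heterozygous and 0.18 in wild-type pools, nor with RMA relative to the median gene, where they were 0.05, -0.05 and 0.13.

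**Figure D2:**
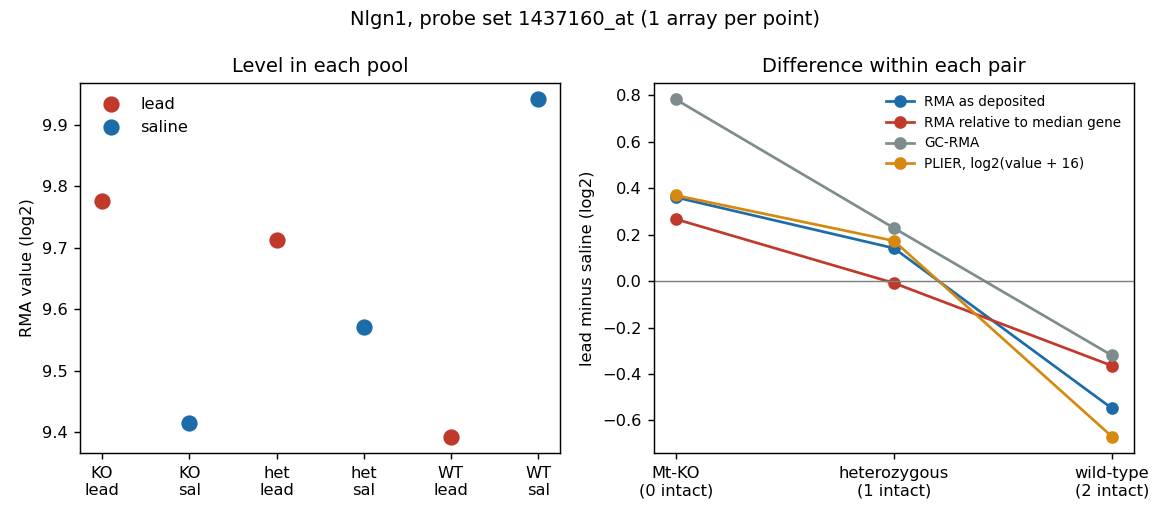
Left, the Nlgn1 level (RMA, log2) in each pool, with lead in red and saline in blue; right, lead minus saline (log2) for each genotype under RMA, RMA relative to the median gene, GC-RMA and PLIER. Each point rests on 1 array or 1 pair of arrays, and all 4 lines run from a value above 0 in Mt-KO to one below 0 in wild-type.

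Probe sets of 1 gene gave different answers for Nrxn3, Dlg4 and Nrxn2. These probe sets were singled out after their values were seen, and the fit over all 17268 probe sets above the limit was added at that point. In it, 2 of the members' 15 probe sets passed for Mt-KO minus wild-type (0.782% of all), 1 for Mt-KO minus heterozygous (0.104%) and 1, that of Nlgn1, for the change per intact allele (4.75%). None passed for lead (0% of all, with 398 probe sets and 2 of the members' at an unadjusted p under 0.05) or for heterozygous minus wild-type (0.0405%, with 0 of the members' at an unadjusted p under 0.05).

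Nrxn3 1456137_at read 11.39 with lead and 12.10 with saline in Mt-KO, 13.09 with lead and 12.32 with saline in heterozygous, and 13.02 with lead and 13.36 with saline in wild-type pools. Both Mt-KO pools lay below the other 4. It fell by 1.45 ± 0.26 in Mt-KO against wild-type (log2, SE, a 2.72-fold lower signal, limma adjusted p = 0.00205), with heterozygous minus wild-type at -0.49 ± 0.26 (adjusted p = 1). These errors come mostly from probe sets of like brightness, not from the scatter of this one. Its lead minus saline differences were far apart, at -0.70 in Mt-KO, 0.77 in heterozygous and -0.35 in wild-type pools. The other 3 Nrxn3 probe sets above the limit were also lower in Mt-KO but had smaller differences, so the values of the 4 spanned 1.27 units. Among 4106 genes with several tested probe sets, 0.414% spanned as much, with a median of 0.21. Those genes had 2 or more probe sets, and a span over 4 tends to be wider than one over 2. The share was not matched for that number. The value was -0.99 without the Mt-KO lead array (adjusted p = 1) and -1.90 without the Mt-KO saline array (adjusted p = 0.128). The remaining Nrxn3 probe sets were flat by comparison, at 12.06 to 12.42 for 1439629_at, 9.67 to 10.07 for 1438193_at and 7.65 to 7.84 for the dim 1432931_at.

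Dlg4 1419581_at read 10.79 with lead and 10.15 with saline in Mt-KO, 9.93 with lead and 9.53 with saline in heterozygous, and 9.90 with lead and 9.33 with saline in wild-type pools. Both Mt-KO pools were above the other 4, and lead was above saline in all 3 pairs. It rose by 0.86 ± 0.14 in Mt-KO against wild-type (1.81-fold, adjusted p = 0.000997) and by 0.74 ± 0.14 against heterozygous (adjusted p = 0.0179). Lead minus saline was 0.54 ± 0.12 (limma, adjusted p = 0.126), and 0.52 without the wild-type pair or either of its arrays (adjusted p = 0.00031 without the pair). In the gene fit without that pair, 2632 of 10916 genes passed for lead. The main Dlg4 probe set had the opposite sign for lead and for Mt-KO minus wild-type, and the same sign for Mt-KO minus heterozygous (0.14). For lead the 2 differed by 0.68 units, and 0.0487% of the 4106 genes spanned as much. For Mt-KO minus wild-type they differed by 0.95, and 1.44% of genes spanned as much. The Mt-KO minus wild-type value was 0.78 without the Mt-KO lead array (adjusted p = 0.234) and 0.93 without the Mt-KO saline array (adjusted p = 0.0734), and Mt-KO minus heterozygous did not pass when any of the 4 arrays it compares was left out (0.64 to 0.84). With GC-RMA this probe set was dim, at 6.92 in Mt-KO lead and 5.34 in Mt-KO saline, against 4.63 to 4.89 in the other 4 pools.

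Nrxn2 1455499_at read 11.20 with lead and 10.76 with saline in Mt-KO, 10.94 with lead and 10.80 with saline in heterozygous, and 11.17 with lead and 10.16 with saline in wild-type pools. All 3 lead pools lay above all 3 saline pools, and the wild-type pair had the widest gap. The lead coefficient was 0.53 ± 0.14 (limma, adjusted p = 0.425). It was 0.88 with PLIER (limma, adjusted p = 0.000574) and 0.29 without the wild-type pair or either of its arrays (adjusted p = 0.00955 without the pair). In the gene fit without that pair, 2632 of 10916 genes passed for lead. Relative to the median gene the difference was 0.35 in Mt-KO, 0.00 in heterozygous and 1.20 in wild-type pools. The main Nrxn2 probe set was 0.47 units lower in its lead coefficient, a gap met by 0.804% of the 4106 genes.

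Homer1 1425710_a_at was the other probe set with all lead pools above all saline pools. It read 9.47 with lead and 9.23 with saline in Mt-KO, 9.47 with lead and 9.06 with saline in heterozygous, and 9.35 with lead and 9.05 with saline in wild-type pools. It was under the brightness limit; in a fit of all 34958 probe sets the lead coefficient was 0.32 ± 0.10 (limma, unadjusted p = 0.00968, adjusted p = 1). It was higher with lead in each pair with GC-RMA too, at 5.37, 4.84 and 4.87 with lead against 4.66, 3.44 and 3.91 with saline. So 2 of the 25 probe sets were higher in all lead pools, where 3.89% of all probe sets were, and 0 were lower in all of them, where 2.54% were. For Mt-KO against wild-type, 4 of 25 were higher in both pools (14.3% of all) and 7 were lower (18.2% of all). The 2 dimmest Homer1 probe sets, 1421768_a_at and 1425671_at, ranged from 7.36 to 7.74 and from 5.80 to 6.09, and the dimmest of Dlg4, 1460261_at, from 8.75 to 8.96. Probe sets of 1 gene share its transcripts, so these counts are not of independent features.

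**Figure D3:**
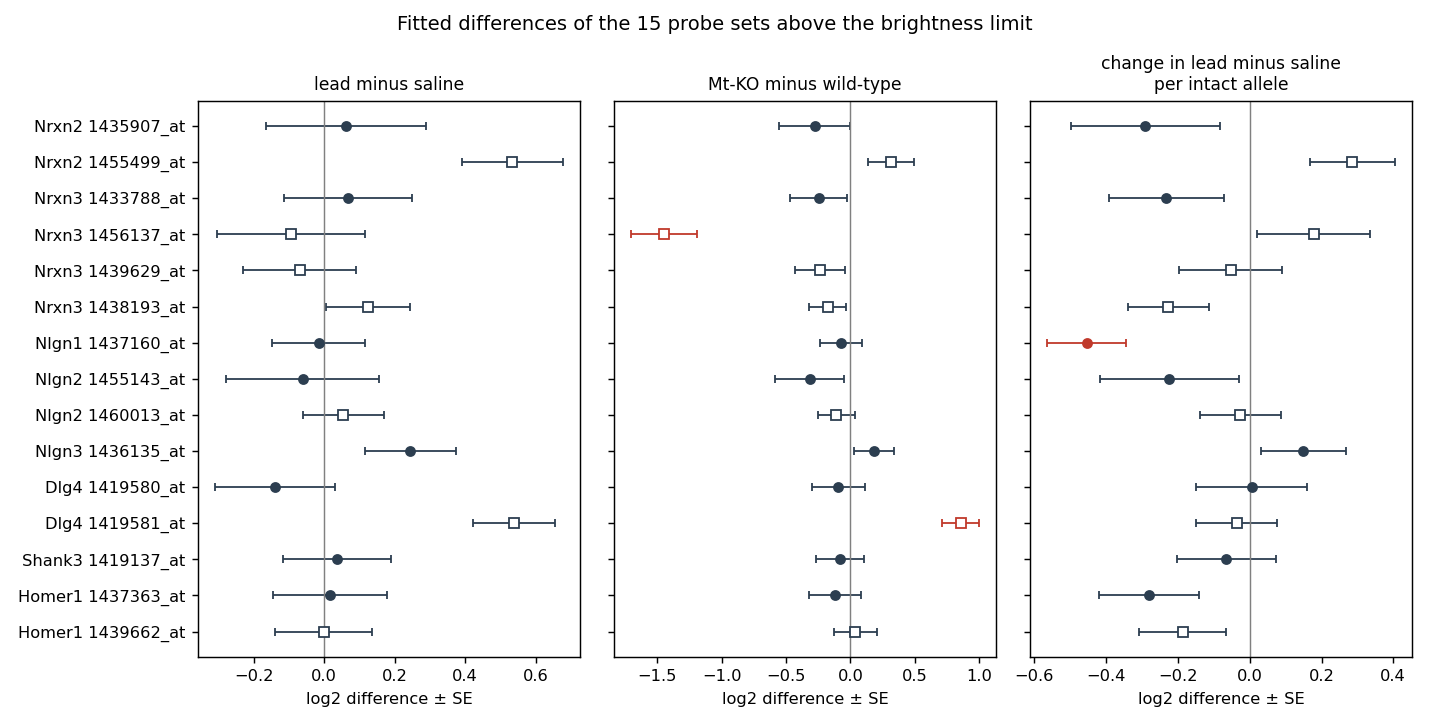
Fitted log2 differences (horizontal axes, bars are SE) of the members' 15 probe sets above the brightness limit, for lead minus saline, Mt-KO minus wild-type and the change in lead minus saline per intact allele. Filled circles are main probe sets, open squares the others, and red marks an adjusted p under 0.05: Nrxn3 1456137_at and Dlg4 1419581_at for Mt-KO, and Nlgn1 for the change per allele.

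The remaining genes of the pathway were taken from lists of 131 symbols, of which 107 were tested. None passed the limma test for lead or for any pair of genotypes, and at an unadjusted p under 0.05 there were 2 for lead, 5 for Mt-KO minus wild-type, 2 for heterozygous minus wild-type and 0 for Mt-KO minus heterozygous. Their medians were 0.04 for lead (0.02 over all genes) and -0.11 for Mt-KO minus wild-type (-0.03 over all genes). Among 38 other transsynaptic adhesion genes the largest lead difference was 0.55 ± 0.14 for Lrrc4b, a netrin-G ligand family member (limma, adjusted p = 0.0504). Cbln1, the cerebellin that bridges neurexins and a glutamate receptor, was 0.35 ± 0.18 with lead (adjusted p = 1), and the cerebellar markers as a list were higher with lead in all 3 genotypes, at 0.10, 0.04 and 0.21 against -0.16, -0.14 and -0.43 with saline (Mt-KO, heterozygous and wild-type, relative to the array median). Cbln1 is itself in that list, and without it the 12 others were at -0.04, -0.10 and 0.08 with lead, against -0.30, -0.27 and -0.57 with saline. The part of cerebellar tissue in the Cbln1 value was not tested. By list, the Mt-KO minus wild-type median ran from -0.04 for 23 postsynaptic density scaffolds to -0.20 for 16 postsynaptic density enzymes and regulators, of which 2 were above the median gene. For Mt-KO minus wild-type the value of the largest size was that of Lrrc4b, at 0.56 ± 0.17 (adjusted p = 0.135). The lowest values were -0.53 ± 0.19 for Rimbp2, which ties calcium channels to the active zone, and -0.50 ± 0.26 for Grm5, the metabotropic receptor that binds Homer1. Cadm1, an adhesion molecule of both sides of the synapse, was at -0.45 ± 0.33, and Mdga2, which binds neuroligins and keeps neurexins off them, at -0.41 ± 0.16 (adjusted p = 0.673).

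Of the same 107 genes, 8 passed for the change per intact allele (7.48%, against 3.77% of all genes). Lrrc4b rose by 0.37 per allele (adjusted p = 0.0498). The 7 that fell were Slitrk2 (-0.44), Slitrk4 (-0.43) and Il1rapl1 (-0.37), which are postsynaptic adhesion proteins, Mdga2 (-0.39), Akap5 (-0.68, adjusted p = 1.24e-05), an anchor of protein kinase A at the postsynaptic density, Dmd (-0.40), which encodes dystrophin, and the channel gene Trpc1 (-0.41). All 8 calls were lost with GC-RMA, quantile normalization or centred arrays, and 1 of the 8 passed when the wild-type lead or the wild-type saline array was left out, without the Mt-KO saline array, without the brightness filter or without the intensity trend. PLIER kept 2, as did leaving out the heterozygous saline array. With the mean over probe sets 6 passed, with the upper 40% of genes 5 of the 7 fitted, without the Mt-KO lead array 7 and without the heterozygous lead array 8. The sign was the same in each of these fits. The median of the 107 was -0.20, against -0.15 over all genes. Among the postsynaptic density scaffolds outside the members, 0 of 23 passed.

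**Figure D4:**
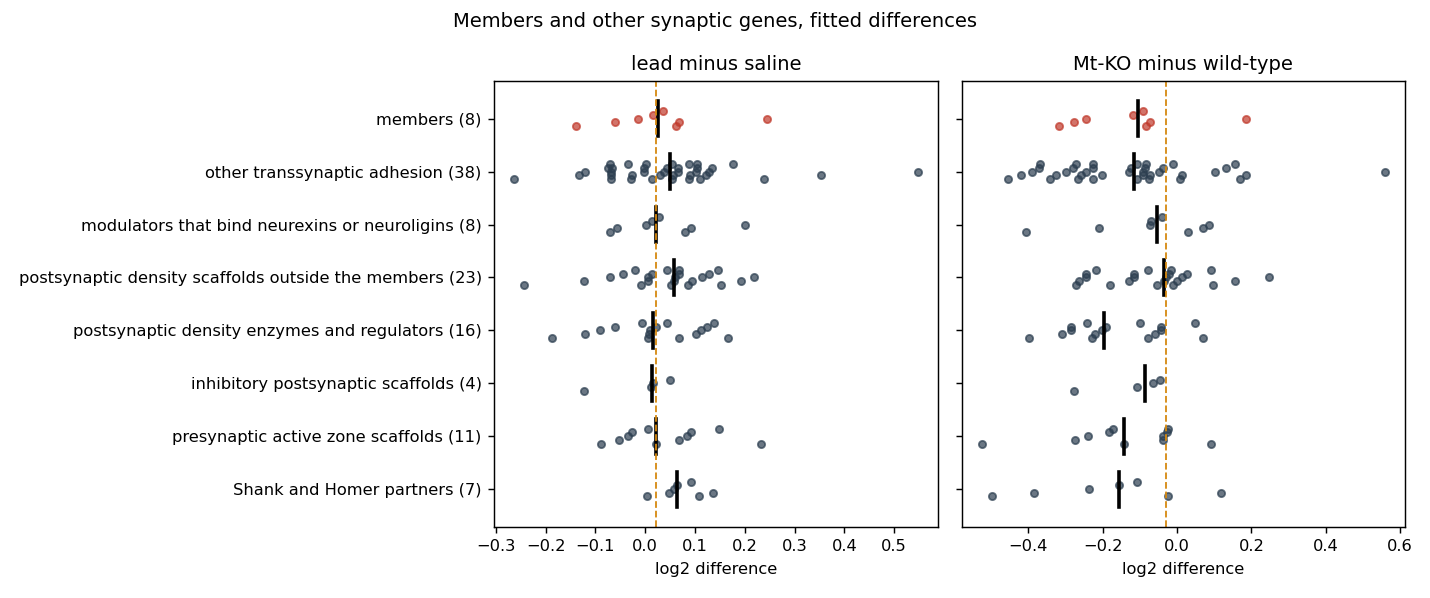
Fitted log2 differences (horizontal axes) for lead minus saline, left, and Mt-KO minus wild-type, right, for the members (red) and 7 lists of other synaptic genes (number tested in brackets). Points are genes, black bars the median of each list and the dashed line the median over all genes tested; for Mt-KO the medians of all 8 rows lie left of that line.

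Among the main probe sets of the members, and relative to the array median, Nlgn3 and Nlgn2 had the widest ranges over the 6 pools, at 0.63 and 0.50. The genes outside the members whose pattern over the 6 pools was most like Nlgn3 were Cryzl2 (Pearson r 0.995), Cdc42ep1 (0.990) and Zfp763 (0.981), and for Nlgn2 they were Ppm1e (0.995), Gnal (0.992) and 5031439G07Rik (0.991). With 6 points, and arrays that share their scale, these are descriptions.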

How the data were processed

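Whole-brain RNA pools were read on 6 arrays, and the 18 deposited columns hold those arrays summarised by 3 algorithms, so columns were never counted as replicates. As deposited, the RMA and GC-RMA columns are log2 values. The PLIER columns were deposited as linear intensities and entered the fits as log2(value + 16). Partek, RMA, GCRMA and PLIER are named per the submitters' processing notes, and no settings are given in the sources used here. The labelling kit in the labels belongs to another array type than the probe set names.

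Probe sets with several symbols (932) or none (9211) were left out. The brightest probe set of each gene was used, and the upper 60% of genes by mean RMA value were tested two-sided with limma 3.58.1 (R 4.3.3), with an intensity trend and Benjamini-Hochberg adjustment at 0.05. The additive fit of genotype and treatment, and the fit of treatment by intact alleles taken as linear, each left 2 residual degrees of freedom. The prior was infinite in the gene fits, so each gene got the spread typical of its brightness. In the additive fit of probe sets the prior had 26.9 degrees of freedom against 2 residual. The spread of a probe set was there also drawn mostly from others of like brightness. With 1 pool per combination, each p-value tests a coefficient against no difference. The spread it uses comes from departures from the fitted model, not from repeated pools or from pups. Precision is limited by the few arrays. The members and gene lists were chosen with earlier results of these data known. All 9 members are named, with the list genes of the largest differences (up to 2 a list), every list gene that passed and the 3 nearest patterns of 2 members. Alternatives were the other summaries, quantile normalization, centring, other brightness limits, the mean over probe sets, no trend, and leaving out arrays or pairs.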

Additional observations from a re-analysis of the deposited data

Results flagged for a closer look

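Nlgn1 calls for a closer look because its lead minus saline difference changed with the number of intact metallothionein alleles, by -0.45 per allele in a tested interaction (limma adjusted p = 0.00262). Lead minus saline was 0.36 in Mt-KO, 0.14 in heterozygous and -0.55 in wild-type pools, each from 1 pair of arrays. The Mt-KO pair also differed in Xist and Eif2s3y, and the part of sex was not tested. Over 13 alternatives the value stayed between -0.58 and -0.28 and passed in 5.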

How the results depend on the processing

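Leaving out an array left its genotype with a lone array, assumed to vary like the others, and took that genotype out of the lead estimate. The Nlgn1 change per allele did not pass with GC-RMA (-0.55), quantile normalization (-0.41), centred arrays (-0.32), no brightness filter or no intensity trend (-0.45 in both), and lay between -0.58 and -0.33 when an array was left out. Nlgn1 was under the limit of the upper 40%. Members past the threshold for that change were then 0 with GC-RMA, quantile normalization, centring, no filter, the upper 40% and no trend, and 0 to 1 without an array. Without the wild-type pair 3 members passed for lead. Leaving out an array gave 0 to 3 for lead and 0 to 6 for either genotype against wild-type.

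Nlgn1 reversed for lead without the wild-type pair (0.25; -0.20 to 0.25 without an array), and without wild-type saline for Mt-KO (-0.47 to 0.33) and heterozygous (-0.42 to 0.37) against wild-type. A change of sign in a value that passed nowhere was not counted as a reversal; there were 79 sign changes among 579 member values, the largest main value concerned being 0.28 in size.

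Nrxn3 1456137_at, Mt-KO minus wild-type, did not pass with GC-RMA (-1.82), quantile normalization (-1.35), centring (-1.45), no filter or no trend (-1.45), and was -1.90 to -0.99 without an array. Dlg4 1419581_at did not pass against wild-type with GC-RMA (1.37), PLIER (0.68), quantile normalization (0.83), centring (0.85), no filter or no trend (0.86), and was 0.78 to 0.93 without an array. Against heterozygous it was 1.37, 0.74, 0.73, 0.75, 0.74 and 0.74 in that order, and 0.64 to 0.84. Its lead value passed at 0.52 without the wild-type pair and was 0.49 to 0.60 without an array. That of Nrxn2 1455499_at passed at 0.88 with PLIER and 0.29 without the wild-type pair (0.29 to 0.73 without an array). Alternatives for these probe sets were added after seeing the data. The causes were not tested.

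Genes past the threshold in the main settings were 13 for lead, 47 for Mt-KO minus wild-type, 13 for heterozygous minus wild-type, 17 for Mt-KO minus heterozygous and 412 for the change per allele. With GC-RMA all 5 counts were 0; with PLIER they were 13, 68, 10, 26 and 142; with centring 0, 7, 0, 4 and 20; with quantile normalization 0, 1, 0, 0 and 1; with the mean over probe sets 0, 10, 0, 2 and 508; with no filter 0, 6, 0, 0 and 92; with no trend 0, 4, 0, 0 and 79; and with the upper 40% 4, 20, 6, 6 and 99. For lead, 1, 3 and 2632 genes passed without the Mt-KO, heterozygous and wild-type pair. Without an array the counts ran from 1 to 2625, 8 to 4380, 3 to 2627, 3 to 253 and 15 to 1029. No paired analysis was possible because each group has 1 array, other than the additive fit itself, which already compares lead with saline within each genotype.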
